A study of Mus musculus with 9 samples.

Results

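Major histocompatibility complex (MHC) class I genes were followed in cultured B16.SIY cells, a mouse melanoma line of C57BL/6 origin, after knockdown of Decr2, which encodes a peroxisomal 2,4-dienoyl-CoA reductase. The set was defined by function, with earlier results of these data known, and held 10 genes. They were the heavy chains H2-K1, H2-D1 and H2-T23, the light chain B2m, and the loading genes Tap1, Tap2, Tapbp, Erap1, Psmb8 and Psmb9. The deposited table held 7 of these 10 among its 10762 genes. H2-T23, Psmb8 and Psmb9 were not in the table and were not analysed here, nor was Nlrc5, the transactivator of class I genes, and none of them can be read as silent. There were 3 groups of 3 libraries, numbered 0, 1 and 2 in the titles: lines with a control hairpin (SHC002), with Decr2 shRNA1 (TRCN0000042099) and with Decr2 shRNA2 (TRCN0000042100). All 3 groups carried the model antigen SIY fused to dsRED, were infected with hairpin lentivirus and had been selected with puromycin as stable lines. The series title speaks of tumors, but the sample labels describe a cell line grown in DMEM with 10% fetal calf serum. No label says that libraries of a group came from separate cultures, so p-values here speak only for the scatter among these 9 libraries, part of which may be technical.

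Class I molecules show peptides from inside the cell to CD8+ T cells. The proteasome and cytosolic peptidases cut proteins, the transporter of TAP1 and TAP2 carries the peptides into the endoplasmic reticulum (ER), ERAP1 trims them, and tapasin (Tapbp) holds the empty heavy chain with its light chain beta-2 microglobulin (B2m) at the transporter until a peptide binds. In the C57BL/6 strain the classical heavy chains are H2-K and H2-D, and B16 melanoma is known for low class I levels that interferon can raise.

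Levels below are the deposited log2 values, and fold changes are differences of group means on that scale, tested with limma and called at a p under 0.05 after Benjamini-Hochberg adjustment over all genes. The line and the knockdown were checked against marker genes. All 8 melanocyte markers were in the table, with a summed linear level of 21499 to 24590 per control library, 15286 to 23293 with shRNA1 and 15500 to 28021 with shRNA2. Of 28 markers of leukocytes, fibroblasts, endothelium and epithelium, 5 were in the table (Lck, Col1a1, Pdgfrb, Postn and Plvap). The summed linear level of these 5 was 25.8 to 38.7 in the controls, 30.8 to 33.4 with shRNA1 and 27.2 to 30.3 with shRNA2, and Ptprc, Epcam and Pecam1 were not among the genes listed. None of the 13 measured markers passed the test, but with the replicate number added to the model as a block Col1a1, a fibroblast collagen, rose in the average of both hairpins (1.45, adjusted p = 0.0175), and the melanocyte genes Gpnmb (-0.61, 0.0196) and Sox10 (-0.24, 0.0449) fell. In that average the blocked fit called 16.2% of all genes as risen and 1516 of the 10762 as fallen. The libraries numbered 0 exceeded the others by 0.87 for Dct and 0.84 for Gpnmb. The part of these markers in the class I values was not tested. Each of the 6 hairpin libraries had less Decr2 mRNA than any control. Decr2 fell by 1.07 on the log2 scale with shRNA1 (limma adjusted p = 0.0195) and by 2.73 with shRNA2 (adjusted p = 0.000568), and the first of these calls was lost without control 1 (adjusted p = 0.0872), control 2 (0.0537) or shRNA1 library 1 (0.0579). In bulk RNA, a change in the share of cells that express a gene cannot be told apart from a change in the RNA per cell.

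The sequence just before the transcription start of H2-K1 and B2m is shown because H2-K1, H2-D1 and B2m shared motifs there, while in the comparisons below H2-K1 passed the test and the other two did not. The bases are from RefSeq on GRCm38.p6, where 9 of the 10 genes had a promoter entry and Tap2 had none; H2-K1 had 2 listed starts, of which the first listed was used. Capitals mark matches on either strand to the interferon regulatory factor (IRF) core AANNGAAA, the NF-kB consensus, the CCAAT box and the cAMP response element core TGACG. H2-K1 lies at chr17:34000348-34000597 on the minus strand and B2m at chr2:122147437-122147685 on the plus strand.
H2-K1: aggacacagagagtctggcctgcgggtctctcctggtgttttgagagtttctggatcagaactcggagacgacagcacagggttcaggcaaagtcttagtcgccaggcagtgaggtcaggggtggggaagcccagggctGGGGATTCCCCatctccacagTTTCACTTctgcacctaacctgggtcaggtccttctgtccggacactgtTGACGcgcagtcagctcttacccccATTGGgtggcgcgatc
B2m: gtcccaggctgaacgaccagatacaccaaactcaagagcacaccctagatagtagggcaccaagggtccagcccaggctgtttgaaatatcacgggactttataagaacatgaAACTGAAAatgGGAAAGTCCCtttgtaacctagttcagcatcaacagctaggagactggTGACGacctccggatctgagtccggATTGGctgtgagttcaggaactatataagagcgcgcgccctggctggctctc
The window of H2-D1 lies in an exon of another annotated transcript, so the stretch that spans its NF-kB and IRF matches is given beside that of H2-K1, at chr17:35262923-35262951 on the plus strand and chr17:34000430-34000458 on the minus strand.
H2-K1 NF-kB to IRF: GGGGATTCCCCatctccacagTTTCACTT
H2-D1 NF-kB to IRF: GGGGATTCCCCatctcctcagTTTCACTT
These stretches of 29 bases were identical at 28 positions and differed by A18T, counted from 1 at the 5′ end with the base of H2-K1 first. In each of them 2 NF-kB matches overlapped, shifted by 1 base. In the 250 bases before the start, H2-K1, H2-D1 and B2m each held all 4 motifs, as did 21 of 27025 promoters (0.0777%). Alone, the IRF core was in 21.6% of these promoters, the NF-kB consensus in 3.75%, the CCAAT box in 34.5% and TGACG in 17.9%. The promoter of H2-T23, which was not measured, held 2 IRF cores and a CCAAT box and neither of the others. The window of Tap1 held a CCAAT box and TGACG, that of Tapbp held 2 CCAAT boxes, and that of Erap1 held none of the 4. All 250 bases of the windows of Tap1, Tapbp and Erap1 lay in annotated exons. Those of Tapbp, Erap1 and H2-D1 lay inside the gene spans given below, so bases before an earlier annotated start were not searched. Over the 190 bases that could be aligned, the promoters of H2-K1 and H2-D1 were identical at 167 (87.9%). A match is a description of letters and shows no binding.

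Of the 7 measured genes, 5 lie on chromosome 17 in GRCm38 and all 7 are annotated as protein coding: H2-K1 at chr17:33996017-34000347 on the minus strand, and on the plus strand Tapbp at chr17:33915899-33929292, Tap1 at chr17:34187553-34197225, Tap2 at chr17:34203527-34216321 and H2-D1 at chr17:35262730-35267499. B2m lies at chr2:122147686-122153083 and Erap1 at chr13:74639568-74693201. Heavy chain genes are near copies of one another, and the submitters' processing notes name kallisto, which assigns reads through short words shared with transcripts. In the GENCODE M21 transcripts 77.2% of the 31-base words of H2-K1 and 73.3% of those of H2-D1 occurred in no other gene, and 358 words were common to both. The shares were 100% for B2m, 99.7% for Erap1, 99.2% for Tap1, 98.7% for Tap2 and 95.4% for Tapbp, which shared 89 words with its neighbour Zbtb22. The values of H2-K1 and H2-D1 are therefore uncertain as to reads divided between paralogs.

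H2-K1, the heavy chain of H2-K, rose with both hairpins by nearly the same amount. Its log2 value was 3.22, 3.04 and 3.19 in controls 0, 1 and 2, it was 4.42, 3.66 and 3.999 with shRNA1, and it was 4.06, 4.02 and 4.02 with shRNA2. All 6 hairpin libraries lay above all 3 controls, and the shRNA2 libraries were much closer to each other than the shRNA1 libraries. The log2 fold change was 0.88 with shRNA1 (SE 0.17, 95% interval 0.49 to 1.26, adjusted p = 0.0139), a ratio of 1.84. With shRNA2 it was 0.88 (SE 0.17, 0.50 to 1.27, adjusted p = 0.0131), a ratio of 1.85. The calls were lost without control 1 (adjusted p = 0.0642 with shRNA1 and 0.0605 with shRNA2) or control 2 (0.0539 and 0.0503), and that of shRNA2 also without shRNA2 library 1 (0.0513).

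H2-D1, the heavy chain of H2-D, did not pass the test with either hairpin. It stood at 5.63, 5.83 and 5.88 in the controls, 6.08, 5.92 and 5.75 with shRNA1, and 5.93, 6.10 and 5.96 with shRNA2. The shRNA1 libraries overlapped the controls, whereas all 3 shRNA2 libraries lay just above the highest control. The log2 fold change was 0.14 with shRNA1 (95% interval -0.10 to 0.38, adjusted p = 0.424) and 0.21 with shRNA2 (-0.02 to 0.45, adjusted p = 0.213). Without the libraries numbered 0 the first was -0.02.

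B2m, the invariant light chain that every classical class I molecule needs, was the most abundant of the 7 transcripts and did not pass the test either. Its log2 value was 7.70, 7.75 and 7.67 in the controls, 7.92, 7.44 and 7.59 with shRNA1, and 7.99, 7.83 and 7.80 with shRNA2. Among the shRNA1 libraries, 1 lay above and 2 lay below the control range, and the shRNA2 libraries all lay above it. The log2 fold change was -0.06 with shRNA1 (95% interval -0.32 to 0.20, adjusted p = 0.773) and 0.16 with shRNA2 (-0.09 to 0.42, adjusted p = 0.383). Without the libraries numbered 0 it fell by 0.20 with shRNA1 (adjusted p = 0.0397).

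**Figure D1:**
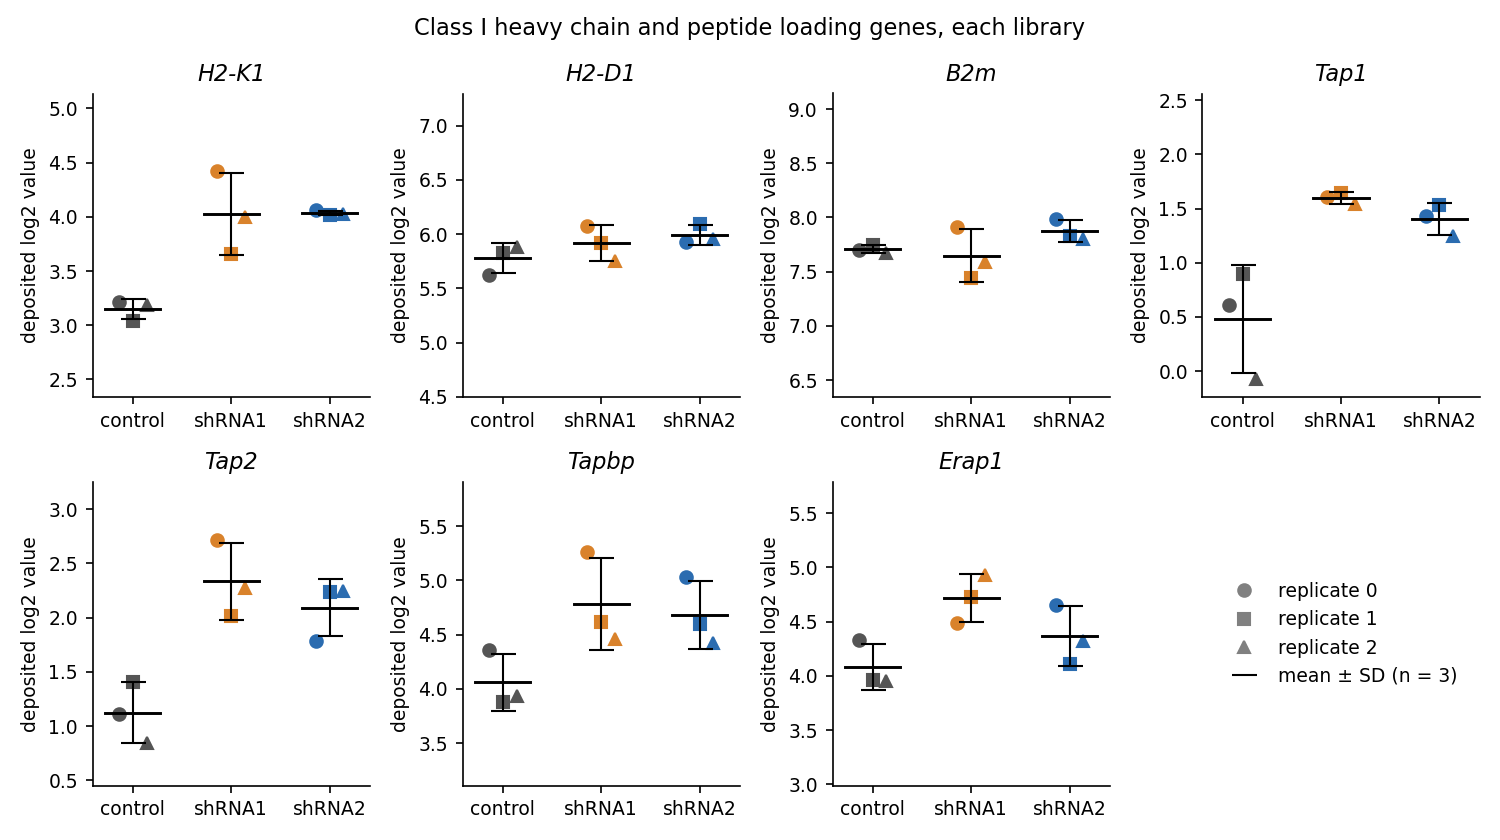
Deposited log2 value (vertical axis) of the 7 measured class I genes in each of the 9 libraries, by group (horizontal axis), with the replicate number as the symbol and the mean ± SD of each group in black. The 6 hairpin libraries lie above all 3 controls for H2-K1, Tap1, Tap2 and Tapbp, and overlap the controls with shRNA1 for H2-D1 and B2m.

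The subunits of the peptide transporter had the largest fold changes among the class I genes in the fit as reported. Tap2 stood at 1.11, 1.41 and 0.85 in the controls, 2.72, 2.01 and 2.28 with shRNA1, and 1.79, 2.24 and 2.25 with shRNA2. Its mean level was low, above 5.0% of the genes of the table. Every hairpin library lay above every control, and the hairpin groups overlapped each other. It rose by 1.21 with shRNA1 (SE 0.25, 95% interval 0.66 to 1.76, adjusted p = 0.0161), a ratio of 2.32. With shRNA2 it rose by 0.97 (SE 0.25, 0.42 to 1.52, adjusted p = 0.0342), a ratio of 1.96. The call with shRNA1 was lost without control 2 (adjusted p = 0.0683). The call with shRNA2 was lost without control 0 (0.0693), control 1 (0.0619), control 2 (0.124), shRNA1 library 2 (0.0543), shRNA2 library 1 (0.116) or shRNA2 library 2 (0.116). With quantile normalization Tap2 rose by 0.97 with shRNA1 (limma adjusted p = 0.0392) and was 0.73 higher with shRNA2 (0.0858).

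Tap1, the partner subunit of the transporter, had the lowest level of the 7 genes, above 1.95% of the genes of the table. Its log2 value was 0.61, 0.90 and -0.07 in the controls, 1.61, 1.64 and 1.54 with shRNA1, and 1.43, 1.53 and 1.25 with shRNA2. The control libraries were spread widely and control 2 was the lowest, while each hairpin group was tight and lay above them. It rose by 1.12 with shRNA1 (SE 0.27, 95% interval 0.51 to 1.73, adjusted p = 0.0300), a ratio of 2.17. With shRNA2 it was 0.93 higher (SE 0.27, 0.32 to 1.54), which missed the threshold (adjusted p = 0.0536), and in the fit that adds the replicate number as a block it rose (adjusted p = 0.0257). In the authors' deposited table it was called with shRNA2 (adjusted p = 0.0409). The call with shRNA1 was lost without control 2 (adjusted p = 0.0876), shRNA1 library 1 (0.0791), shRNA1 library 2 (0.0737) or shRNA2 library 1 (0.0513), and the gene passed with shRNA2 without shRNA1 library 0 (0.0442). Quantile normalization (0.0848) and a fit of only the groups compared (0.0766) also lost the call with shRNA1, which held in 9 of 15 alternatives.

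Tapbp, which encodes tapasin, was higher in all 6 hairpin libraries than in any control, but its call depended on the model. It stood at 4.36, 3.88 and 3.94 in the controls, 5.26, 4.62 and 4.46 with shRNA1, and 5.03, 4.59 and 4.42 with shRNA2. In each group library 0 was the highest. The log2 fold change was 0.72 with shRNA1 (SE 0.23, 95% interval 0.19 to 1.25, adjusted p = 0.0767) and 0.62 with shRNA2 (SE 0.23, 0.09 to 1.15, adjusted p = 0.114), and the first was 0.48 without shRNA1 library 0. With the replicate block it rose with both (adjusted p = 0.00185 and 0.0033). The same-numbered hairpin minus control differences were 0.90, 0.74 and 0.53 with shRNA1, and 0.67, 0.71 and 0.48 with shRNA2. It also passed without the libraries numbered 0, by 0.63 with shRNA1 (adjusted p = 0.00208) and by 0.60 with shRNA2 (0.00248), and with shRNA2 without shRNA1 library 0 (0.0357).

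Erap1, the aminopeptidase that trims peptides in the ER, rose with shRNA1. Its log2 value was 4.33, 3.96 and 3.95 in the controls, 4.49, 4.73 and 4.93 with shRNA1, and 4.66, 4.11 and 4.32 with shRNA2. The shRNA1 libraries all lay above the controls, and the shRNA2 libraries overlapped both other groups. The log2 fold change was 0.64 with shRNA1 (SE 0.17, 95% interval 0.25 to 1.02, adjusted p = 0.0430), a ratio of 1.55. With shRNA2 it was 0.28 (-0.11 to 0.67, adjusted p = 0.316), and 0.14 without shRNA2 library 0, the highest of its group. The call with shRNA1 was lost without control 1 (adjusted p = 0.152), control 2 (0.153), shRNA1 library 1 (0.0954), shRNA1 library 2 (0.125) or shRNA2 library 2 (0.0681). Quantile normalization (0.0828), a fit of only the groups compared (0.0573) and a fit without the variance trend (0.0520) also lost it. The call held in 8 of 16 alternatives.

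**Figure D2:**
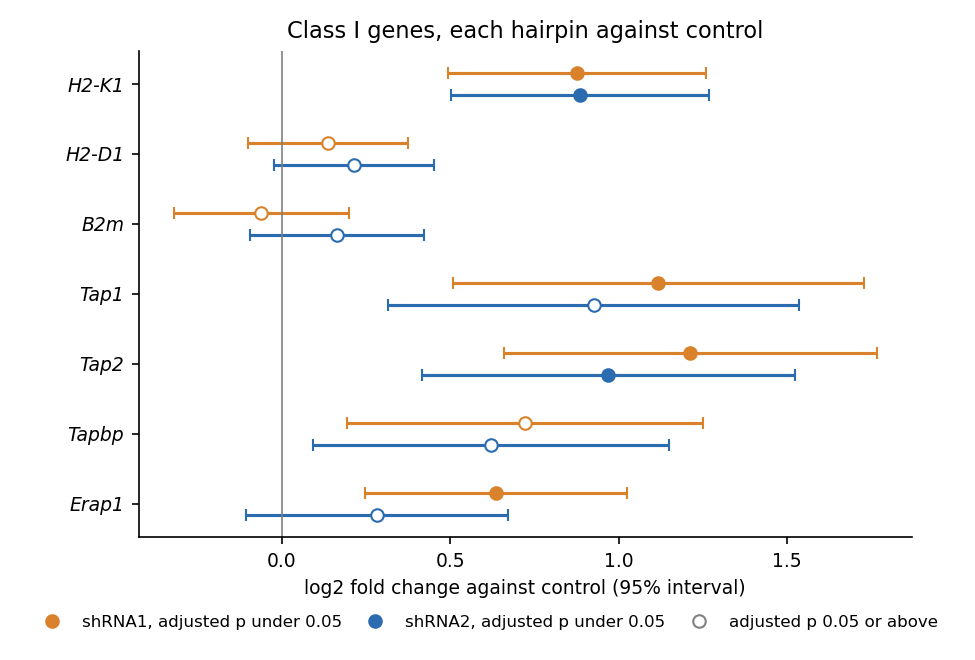
Log2 fold change against control (horizontal axis) of each class I gene (vertical axis), with its 95% interval, for shRNA1 in orange and shRNA2 in blue. Filled points passed an adjusted p of 0.05 and open points did not; the filled ones are H2-K1 and Tap2 with both hairpins and Tap1 and Erap1 with shRNA1.

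As a set, 4 of the 7 measured genes rose with shRNA1, 0 fell and 3 did not pass, where 6.92% of all genes rose and 5.49% fell; with the replicate block 5 of 7 rose, where 13.4% of all genes did. With shRNA2, 2 of 7 rose and 0 fell, where 7.27% of all genes rose and 5.67% fell, and with the block 4 of 7 rose, where 13.4% did. The genes called with both hairpins were H2-K1 and Tap2, and 4.54% of all genes rose and 3.01% fell with both. The median log2 fold change of the 7 genes was 0.72 with shRNA1 and 0.62 with shRNA2, beside medians of 0.0018 and 0.0046 over all genes. The comparisons share the control libraries, so the hairpins are not independent of each other. The set was also chosen with earlier results of these data known, so its counts beside the shares of all genes are a description. All 3 shRNA1 libraries lay above the control range for 5 of 7 genes (17.3% of all genes), all 3 shRNA2 libraries did for 6 of 7 (20.1%), and all 6 did for 4 of 7 (12%).

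The count of calls rested on few libraries. With shRNA1 it was 0 without control 2, and 2 without control 1 (Tap1 and Tap2), shRNA1 library 1 (H2-K1 and Tap2) or shRNA1 library 2 (H2-K1 and Tap2). With shRNA2 it was 0 without control 1, control 2 or shRNA2 library 1, and 1 (H2-K1) without control 0, shRNA1 library 2 or shRNA2 library 2. It was 4 without shRNA1 library 0 (H2-K1, Tap1, Tap2 and Tapbp). The share of all genes called with a library left out was not computed.

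**Figure D3:**
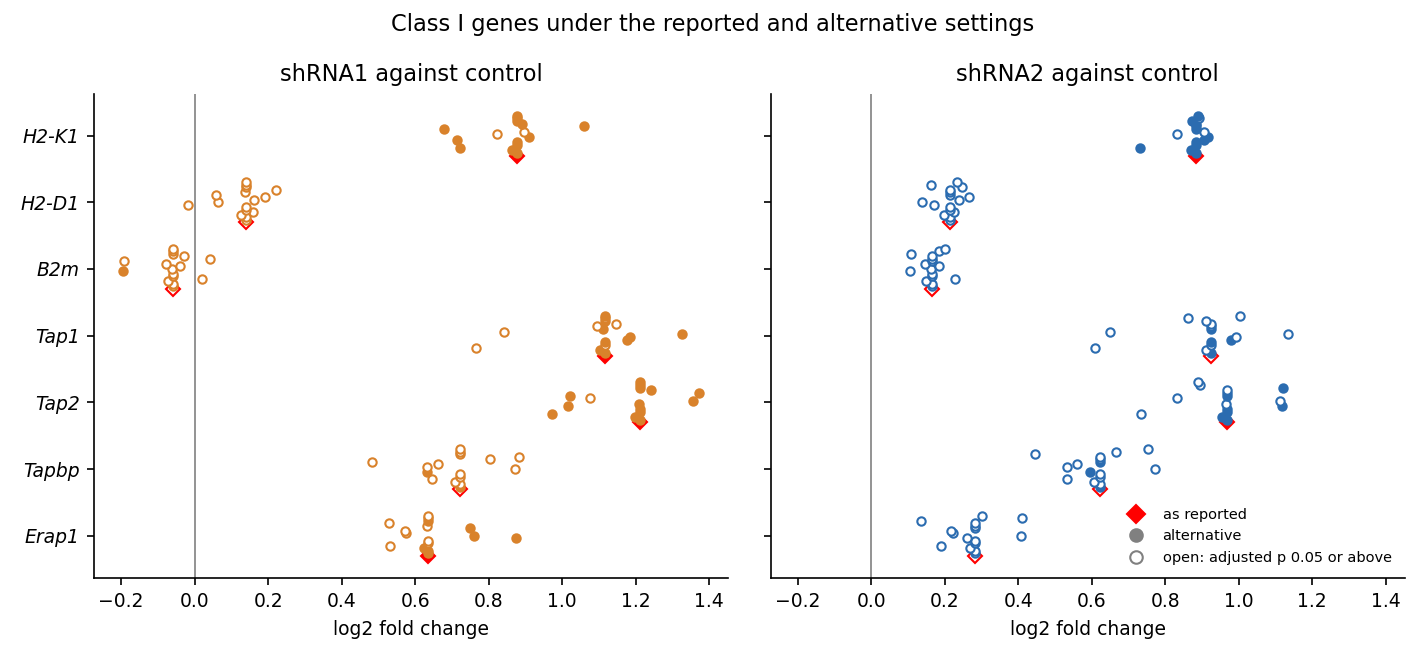
Log2 fold change (horizontal axis) of each class I gene (vertical axis) with shRNA1 (left) and shRNA2 (right), as reported (red diamonds) and under each alternative (circles), with open symbols for an adjusted p of 0.05 or above. The sizes for H2-K1 lie between 0.68 and 1.06 with shRNA1 and between 0.73 and 0.92 with shRNA2, and no called gene changes sign.

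The hairpins were also averaged and set against the controls, a comparison that weights what they have in common. In this comparison 4 of the 7 genes rose and 0 fell, where 9.69% of all genes rose and 7.89% fell. Tap2 rose by 1.09 (SE 0.21, adjusted p = 0.0102), Tap1 by 1.02 (SE 0.23, 0.0184), H2-K1 by 0.88 (SE 0.15, 0.00556) and Tapbp by 0.67 (SE 0.20, 0.0494). Erap1 was 0.46 higher (SE 0.15, adjusted p = 0.0628) and rose in the blocked fit (0.0375), which called 5 of the 7 genes where 16.2% of all genes rose. H2-D1 was 0.18 higher (SE 0.09, adjusted p = 0.211) and B2m was 0.05 higher (SE 0.10, 0.759). Of the 4 calls, the call of H2-K1 alone held without control 2, where Tap2 (adjusted p = 0.0571), Tap1 (0.0736) and Tapbp (0.174) missed. Tapbp also missed without control 1 (0.194), shRNA1 library 1 (0.0606) or shRNA2 library 0 (0.0741), 1 (0.0826) or 2 (0.0536), and Erap1 passed without control 0 (0.0482) or shRNA1 library 0 (0.0313).

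No class I gene differed between the hairpins in the direct test, 0 of 7 by limma, where 0.455% of all genes were called, and 0 of 7 at an unadjusted p under 0.05, where 10% of all genes lay. The intervals of the shRNA2 minus shRNA1 difference were wide: -0.74 to 0.04 for Erap1, -0.80 to 0.31 for Tap2, -0.80 to 0.42 for Tap1 and -0.63 to 0.43 for Tapbp. That of H2-K1 ran from -0.37 to 0.39. Without the libraries numbered 0, Erap1 was lower with shRNA2 than with shRNA1 by a log2 difference of -0.61 (adjusted p = 0.0121), and B2m was higher by 0.30 (0.0228).

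Within a library, H2-K1 was set against H2-D1 and against B2m, pairs chosen with their changes known, so the values are given as a description with no p. The log2 value of H2-K1 minus that of H2-D1 was -2.41, -2.78 and -2.69 in the controls, -1.66, -2.26 and -1.76 with shRNA1, and -1.87, -2.07 and -1.93 with shRNA2. The difference was smaller in size in all 6 hairpin libraries than in any control, and the group means differed by 0.70, a ratio of 1.63. The log2 value of H2-K1 minus that of B2m was -4.49, -4.71 and -4.48 in the controls, -3.49, -3.78 and -3.59 with shRNA1, and -3.93, -3.81 and -3.78 with shRNA2, and its means differed by 0.83. With any 1 library or those numbered 0 left out, settings added after seeing the data, these differences stayed between 0.63 and 0.81 and between 0.75 and 0.87.

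Per kilobase of the longest coding transcript, levels were compared between genes on the linear scale. In the controls the order was B2m (243 ± 6.5, SD, n = 3), H2-D1 (26.2 ± 2.4), Tapbp (5.82 ± 1.10), H2-K1 (5.49 ± 0.35), Erap1 (3.02 ± 0.47), Tap2 (0.641 ± 0.125) and Tap1 (0.490 ± 0.156). Tapbp and H2-K1 overlapped in the controls, as did Tap2 and Tap1, and the other neighbours did not. With shRNA1 and shRNA2 the level of H2-K1 was 10.3 ± 2.7 and 10.1 ± 0.15, that of H2-D1 was 28.9 ± 3.2 and 30.4 ± 1.9, and that of B2m was 236 ± 41 and 273 ± 19 (SD, n = 3 each). H2-D1 thus remained above H2-K1 in every library. The sources used here do not say whether the deposited values were already scaled for length; undivided, the control means of Erap1 (log2 4.08) and Tapbp (4.06) both stood above that of H2-K1 (3.15).

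**Figure D4:**
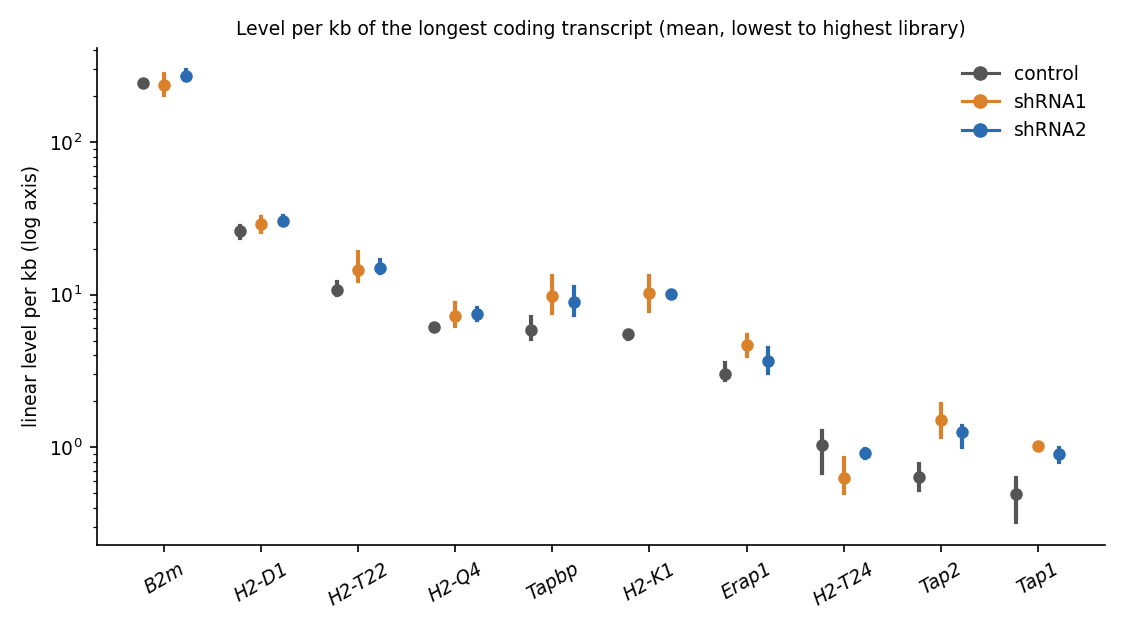
Linear level per kilobase of the longest coding transcript (logarithmic axis) of the 7 class I genes and of 3 other heavy chains (H2-T22, H2-Q4 and H2-T24) by group, with the mean as a point and a line from the lowest to the highest library. B2m lies between 202 and 295, H2-D1 between 23.5 and 32.5 and Tap1 between 0.322 and 1.06.

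Some class I genes were higher in the libraries that carry the number 0 in the titles. The mean of the 3 libraries numbered 0 minus that of the other 6 was 0.57 for Tapbp, 0.24 for H2-K1, 0.19 for B2m, 0.16 for Erap1, 0.09 for Tap1, 0.03 for Tap2 and -0.03 for H2-D1. Within every group library 0 was above the mean of the other libraries for Tapbp, H2-K1 and Tap1, while for Tap2, Erap1, H2-D1 and B2m the sign differed between groups. Pooled, the difference was positive for 6 of the 7 genes (85.7%) with a median of 0.16, beside 51.0% of all genes with a median of 0.0064. The number 0 occurs once in each group, and its part in the results was not tested beyond the block and the fits without these libraries.

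The genes around the loading machinery moved in both directions. Of 69 listed genes of class I processing, 46 were in the table, and in the average of both hairpins 7 rose, 6 fell and 33 did not pass, where 9.69% of all genes rose and 7.89% fell. Their median log2 fold change was -0.08, beside -0.00057 over all genes. With both hairpins, Psme1 and Psme2 rose and Calr, Canx and Pdia3 fell. The count in the average was 3 without control 1, 5 without control 2 and 27 without the libraries numbered 0. For fits with libraries left out, here and below, the share of all genes called was not computed. Such counts show only how far the calls depended on the libraries used. With shRNA1 alone 3 of the 46 rose and 4 fell, near the shares over all genes (6.92% rose and 5.49% fell). With shRNA2 alone 5 rose and 6 fell, where 7.27% and 5.67% of all genes did. The replicate block gave 9 rose and 9 fell with either hairpin, where 13.4% of all genes rose with either, 11.2% fell with shRNA1 and 10.6% fell with shRNA2. The 7 calls with shRNA1 became 1 without control 1 and 2 without control 2. The 11 calls with shRNA2 became 2 without control 1, control 2 or shRNA2 library 2, 3 without shRNA2 library 1, 6 without shRNA2 library 0 and 19 without shRNA1 library 0.

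**Figure D5:**
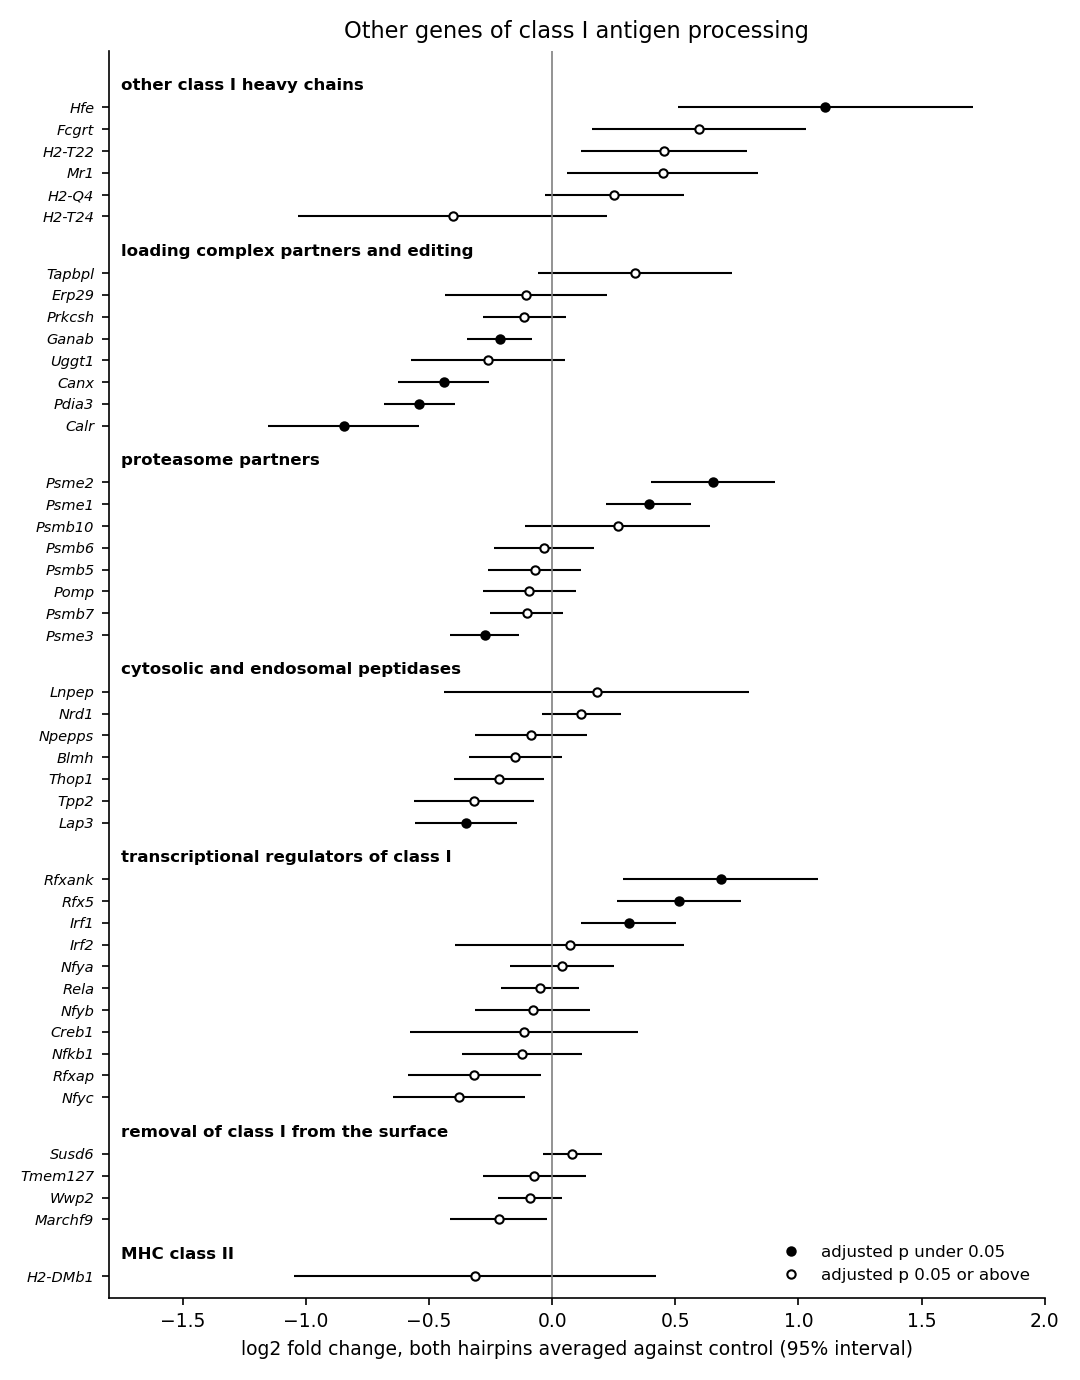
Log2 fold change of both hairpins averaged against control (horizontal axis) for measured genes of the wider lists (vertical axis, by list), with its 95% interval and filled points for an adjusted p under 0.05. Hfe, at 1.11, lies furthest to the right and Calr, at -0.85, furthest to the left.

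Of 8 proteasome genes, 2 rose, 1 fell and 5 did not pass in the average, where 9.69% of all genes rose and 7.89% fell. The risen genes were both subunits of the PA28 activator, a ring that caps the proteasome. Psme2 stood at 4.72, 4.39 and 4.49 in the controls, 5.49, 5.04 and 5.16 with shRNA1, and 5.15, 5.09 and 5.15 with shRNA2, so that no hairpin library overlapped the controls. It rose by 0.65 (SE 0.11, adjusted p = 0.00607), and 66.5% of its 31-base words were its own, with the remainder shared with its copy Psme2b. Psme1 rose by 0.39 (SE 0.08, adjusted p = 0.0102) and Psme3, a nuclear activator subunit of the same family, fell by 0.27 (SE 0.06, 0.0174). Psme1 missed without control 1 (adjusted p = 0.0631) and Psme3 without control 1 (0.0785) or control 2 (0.0871). Psmb10, an immunoproteasome subunit named after its value was seen, did not pass in the average (0.27, adjusted p = 0.304). It was 0.52 higher with shRNA1 (0.117) and 0.01 higher with shRNA2 (0.971). In the blocked fit it rose with shRNA1 (0.0214), where 13.4% of all genes rose. Of 7 cytosolic and endosomal peptidases, Lap3, leucine aminopeptidase, fell by 0.35 (SE 0.09, adjusted p = 0.0310) and 6 did not pass. That call was lost without control 1 (0.150), control 2 (0.115), shRNA1 library 2 (0.0532), shRNA2 library 0 (0.0537) or shRNA2 library 2 (0.0664).

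Calr, Pdia3 and Canx, general ER chaperones that work beside tapasin, fell with both hairpins. Of 8 listed loading partners 0 rose, 4 fell and 4 (Erp29, Prkcsh, Tapbpl and Uggt1) did not pass, where 9.69% of all genes rose and 7.89% fell. Calr, calreticulin, stood at 10.23, 10.10 and 10.05 in the controls, 9.45, 9.19 and 9.24 with shRNA1, and 9.67, 9.07 and 9.06 with shRNA2. Every hairpin library lay below every control for Calr, as for Canx and Pdia3. Among all 10762 genes, all 3 shRNA1 libraries lay below the controls for 1791 and all 3 shRNA2 libraries for 2009. Calr fell by 0.85 (SE 0.14, adjusted p = 0.00491), Pdia3, the oxidoreductase ERp57 that pairs with tapasin, by 0.54 (SE 0.06, 0.0018) and Canx, calnexin, by 0.44 (SE 0.08, 0.00857). Ganab, a glucosidase subunit named after its value was seen, fell by 0.21 (adjusted p = 0.0345). Calr and Pdia3 passed in all 15 alternatives, and Canx missed without control 1 (0.0539) and with quantile normalization (-0.27, 0.0624). Ganab missed in 8 of 15 alternatives, among them quantile normalization (-0.14), and without any 1 of 7 libraries (all but shRNA1 libraries 0 and 1). Tapbpl, the tapasin-related editor of peptides, was 0.34 higher (adjusted p = 0.213).

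Of 21 other class I heavy chain genes 6 were in the table. In the average 1 rose, 0 fell and 5 did not pass, where 9.69% of all genes rose and 7.89% fell. The risen gene was Hfe, a nonclassical chain that regulates iron uptake rather than presenting peptides. It stood at 3.20, 2.54 and 2.32 in the controls, 4.49, 3.63 and 3.67 with shRNA1, and 4.11, 3.35 and 3.53 with shRNA2, above the controls in all 6 hairpin libraries. Hfe rose by 1.11 (SE 0.27, adjusted p = 0.0218), and missed without control 1 (0.101) or control 2 (0.107). H2-T22, a nonclassical chain recognised by gamma delta T cells, was 0.45 higher (adjusted p = 0.0655; 0.00562 in the blocked fit), and Mr1, which presents vitamin metabolites, was 0.45 higher (0.103; 0.00236 in the blocked fit). H2-T22 shared 47.2% of its 31-base words with H2-T10. Fcgrt, the neonatal Fc receptor, was 0.60 higher (0.0616; 0.0293 with the block). These 3 were named after their values were seen, because the block changed their call. H2-T24 was lower, at -0.40 (adjusted p = 0.345), and H2-Q4 was 0.25 higher (0.193). Neither passed in the blocked fit (0.238 and 0.0746). That fit called 4 of the 6 as risen and 0 as fallen, where 16.2% of all genes rose.

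Of 12 measured transcriptional regulators of class I genes, 4 rose, 0 fell and 8 did not pass in the average. Over all genes 9.69% rose and 7.89% fell in the average. Rfx5, the DNA-binding subunit of the RFX complex at class I promoters, rose by 0.52 (SE 0.11, adjusted p = 0.0148), and its partner Rfxank by 0.68 (SE 0.18, 0.0278). Rfxap, the other RFX subunit, named after its value was seen, went the other way, at -0.32 (adjusted p = 0.0986). With shRNA2 Rfxap was at -0.42 (adjusted p = 0.0753) and fell in the blocked fit (0.0483), which called 10.6% of all genes as fallen. Irf1, an interferon-induced activator of class I genes named after its value was seen, rose by 0.31 (SE 0.09, adjusted p = 0.0366). With shRNA1 alone 0 of 12 passed, where 6.92% of all genes rose and 5.49% fell, and 5 had an unadjusted p under 0.05, as did 28.7% of all genes. With shRNA2 alone 3 rose and 1 fell (Nfyc, at -0.48, adjusted p = 0.0496), where 7.27% and 5.67% of all genes did. The difference between the hairpins was called for 0 of 12, and 3 had an unadjusted p under 0.05, as did 10% of all genes. The calls of Rfx5, Rfxank and Irf1 were lost without control 1 (adjusted p = 0.0777, 0.132 and 0.111) or control 2 (0.0800, 0.116 and 0.170). All of these calls were also lost with quantile normalization (limma adjusted p = 0.0519, 0.0534 and 0.115). Irf1 also missed without shRNA1 library 1 (0.0688) or 2 (0.0581) or shRNA2 library 1 (0.0749) or 2 (0.0771).

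Of 4 measured genes that remove class I molecules from the surface, 0 passed by limma, and 1 had an unadjusted p under 0.05, as did 33.2% of all genes. Susd6 was 0.08 higher (adjusted p = 0.318) and Tmem127 was at -0.07 (0.631); both encode parts of a complex that marks class I for degradation. Of 7 MHC class II genes only H2-DMb1, a chain of the class II loading catalyst, was in the table, at -0.31 (adjusted p = 0.545), and the others were not analysed here.

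The profile of H2-K1 over the 9 libraries was compared with that of 5381 genes above the median level, by the root mean square difference of the centred log2 values, where a smaller value means a closer profile. The closest were Fam129a (0.155), Ckb, the brain-type creatine kinase (0.156), Wbp1 (0.173), Uqcr10, a subunit of respiratory complex III (0.177), and Fam234a (0.177). Fam129a was 0.93 higher with shRNA1 and 0.89 with shRNA2, and Ckb was 0.57 and 0.75 higher. Among the class I genes the difference to H2-K1 was 0.235 for Tapbp, 0.260 for Tap2, 0.347 for Tap1, 0.381 for H2-D1, 0.384 for Erap1 and 0.412 for B2m. H2-D1 thus stood further from H2-K1 in its profile than Tapbp, Tap2 and Tap1 did. The measure takes in the size of the hairpin change, which was smaller for H2-D1. How reads were divided over the 358 transcript words that H2-D1 shares with H2-K1 was not tested.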

How the data were processed

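Messenger RNA was sequenced in 9 libraries of B16.SIY cells, and groups and replicate numbers were taken from the sample titles. The deposited table gives the authors' log2 value per gene and library; raised to the power of 2 these summed to 969465 to 1045849 per library, with library medians of 5.35 to 5.38. Per the submitters' processing notes, kallisto, FastQC and limma were used; scaling, genome build, annotation, low-level filter and strand setting are not given in what was available here. The deposited p-values of the authors' comparisons, per the file headers, were used only where their table is named. Read depth is unknown, since the table holds no counts, so precision is given by the spread between libraries.

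The column names do not spell out the hairpin. It was read from the authors' headed fold changes, of which 99.95% (shRNA1) and 99.7% (shRNA2) lay within 0.05 of the difference of means assigned here, against 26.6% and 26.3% for the other columns; if those headings were exchanged, the hairpin names here would be too. Symbols came from Ensembl identifiers, of which 3 were unmatched.

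Tests used limma 3.58.1 in R 4.3.3 with a mean per group, all 9 libraries, an intensity trend (3.30 prior and 6 residual degrees of freedom), and Benjamini-Hochberg adjustment over 10762 genes, called at an adjusted p under 0.05; the script was tested on simulated data. Alternatives were the replicate block, a filter on the lowest 25% of genes, centred or quantile-normalized libraries, only the groups compared, no variance trend, a log2 fold minimum of 0.5, leaving out the libraries numbered 0, and leaving out each library. Deviations from the group means correlated at 0.126 to 0.644 for each of the same-numbered pairs. The fit as reported leaves this pairing out, and only the replicate block takes it into account. The pairing comes from these correlations and the title numbers, not from a stated batch. The class I genes, the wider lists and the tests were chosen with earlier results of these data known. All class I genes are named; of each wider list, up to 3 genes called in the average of both hairpins by adjusted p, failing that the 2 with the highest mean level. A gene that this rule names is counted in its list but is not reported here. The genes set beside H2-K1 are the 5 with the closest profile among genes above the median level. Sequences came from RefSeq (GRCm38.p6), coordinates and transcript words from GENCODE M21 (GRCm38); the authors may have used another build.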

Additional observations from a re-analysis of the deposited data

How the results depend on the processing

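Across the alternatives no called class I gene changed sign: 373 refitted fold changes kept their side of the threshold, 40 lost a call and 16 gained it. The 373 include comparisons that were not called as reported and had no call to lose. They therefore do not give the share of calls that held. The call of H2-K1 with shRNA1 held in 13 of 15 alternatives, that of Tap2 with shRNA2 in 8 of 15 and that of Tapbp in the average in 5 of 15. In the average of both hairpins H2-K1 passed in 14 of 14 alternatives (0.73 to 0.97). The class I genes called with shRNA1 (4) were 2 with quantile normalization, 2 with only the groups compared, 1 with the lowest 25% of genes removed, a filter that takes H2-K1, Tap1 and Tap2 out of the test, and 0 to 4 with 1 library left out. Those called with shRNA2 (2) were 4 with the replicate block, 4 without the libraries numbered 0, 1 with quantile normalization, 0 with the lowest 25% removed and 0 to 4 with 1 library left out. Those called with both hairpins (2) were 4 with the block, 4 without the libraries numbered 0, 1 with quantile normalization, 0 with the lowest 25% removed and 0 to 3 with 1 library left out. In the average (4) the counts were 2, 0 and 1 to 5 under quantile normalization, that filter and leaving out 1 library. Between the hairpins (0) the count was 2 without the libraries numbered 0. For the wider genes, the 13 calls in the average were 6 with a log2 fold minimum of 0.5, 27 without the libraries numbered 0 and 3 to 19 with 1 library left out. The 7 with shRNA1 were 4, 22 and 1 to 8, and 18 with the block. The 11 with shRNA2 were 5, 26 and 2 to 19, and 18 with the block. Between the hairpins (0) the count was 1 with the block and 3 without the libraries numbered 0. Outside the main and blocked fits the share of all genes called was not computed, so those counts have no such share beside them. Other than the calls given in the report, the block changed no call of a class I gene. The causes of these shifts were not tested, apart from the filter, which removes genes. Scaling moved the median gene by less than 0.1 on the log2 scale. Quantile normalization nevertheless took Tap1 from 1.12 to 0.77 with shRNA1, from 0.93 to 0.61 with shRNA2 and from 1.02 to 0.69 in the average, and Canx from -0.44 to -0.27. Low transcripts such as Tap1 are measured with unknown depth, so a missed threshold there does not show that levels were equal.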
